A study of Arabidopsis with 8 samples.

Results

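The comparison described here is that of well-watered *Arabidopsis* plants carrying a transgene for neuronal nitric oxide synthase (nNOS control) with well-watered wild-type plants (WT control), read on 4 of the 8 Affymetrix ATH1 arrays of the study. It takes in all 22746 of the 22810 probe sets on the array, with the 64 Affymetrix controls set beside them. The nNOS plants expressed the rat *nNOS* gene from the constitutive cauliflower mosaic virus 35S promoter in the Col-0 background, and the WT plants were Col-0. Both groups were watered throughout, and the remaining arrays hold nNOS drought and WT drought, the same genotypes left without water. Plants were 2 weeks old when the treatments began, leaves of 20 or more seedlings made up a sample, and each group had 2 arrays. The labels place the harvest at day 14, whereas the methods of the study give a shorter period for the arrays. The methods describe RNA pooled in equal amounts from 2 transgenic lines, whereas the extraction step in the labels names only the line nNOS-25. The array carries no probe set for the transgene, so the genotype labels could not be checked on it. Nothing in the labels says that the 2 samples of a group were grown separately, and the p-values then measure only the spread between these samples.

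Nitric oxide is a small gaseous signal that plants produce through nitrate reductase and through routes that are less well defined. It modifies proteins, mainly at cysteine thiols and at haem or other metal centres, and it is known for roles in stomatal closure, defence, iron homeostasis and the regulation of photosynthesis and respiration. A mammalian synthase, which makes nitric oxide from arginine, gives the plant a source of the gas that its own regulation does not control. The comparison of watered plants asks what the transgene alone changes in leaf transcripts.

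The nNOS control arrays stood apart in the control probe sets. The 24 probe sets for the poly-A controls, bacterial RNAs that are added to each sample before labelling, averaged 8.98 and 9.40 on the log2 scale in nNOS control, against 6.88 and 6.88 in WT control. Their mean log2 fold change was 2.31, with a range over the probe sets of 1.91 to 2.89, and all 24 passed both thresholds used below. Each of the 4 added RNAs showed it, with mean differences of 2.20 for dap, 2.57 for lys, 2.40 for phe and 2.09 for thr. On the droughted arrays the nNOS over WT difference of the same probe sets was 0.50. Hybridization controls, which are added after labelling, differed by 0.95 on average over 18 probe sets (range 0.24 to 1.34). The probe set for 25S ribosomal RNA had 12.11 and 12.18 in nNOS control, against 11.02 and 11.06 in WT control. Probe sets for the Trpn sequence, also bacterial, lay near the floor at 2.35 and 2.47 in nNOS control and 2.30 and 2.34 in WT control. The 3′ minus 5′ difference of GAPDH, a measure of RNA integrity and labelling, was 0.37 and 0.68 in nNOS control and 0.59 and 0.49 in WT control, and the arrays overlapped. The same difference of actin was 2.19 and 2.24 in nNOS control, against 2.27 and 2.54 in WT control, lower on both nNOS arrays. Each of these is an average over different probe set designs, and the actin arrays overlapped in part of the designs when taken alone. The part of these shifts and differences in the results below was not tested.

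**Figure D1:**
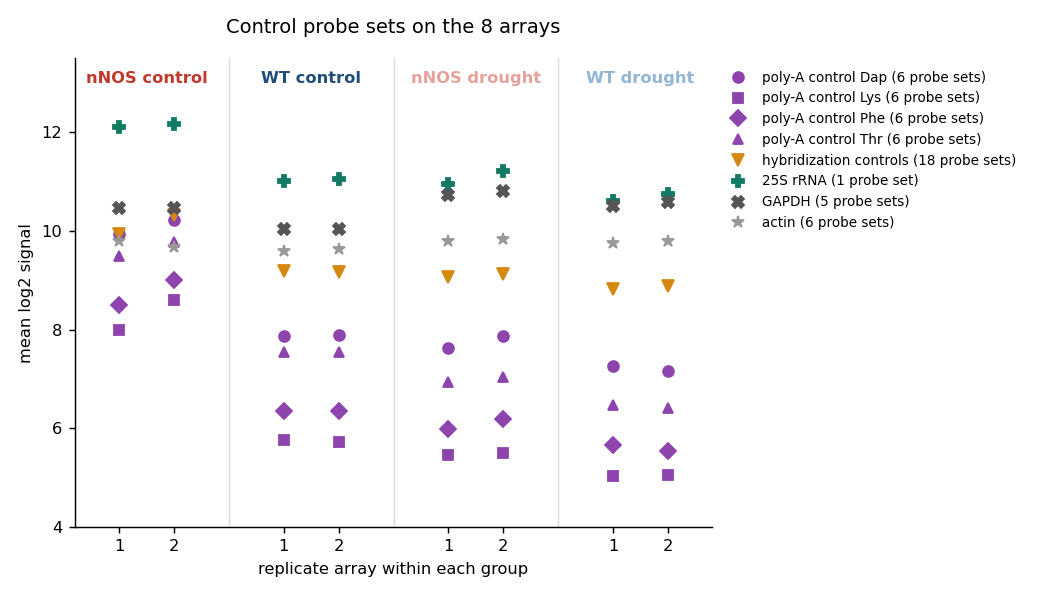
Mean log2 signal of control probe sets on each of the 8 arrays, with 1 point per array and kind of control; the x axis gives the replicate array within nNOS control, WT control, nNOS drought and WT drought. All 4 poly-A control RNAs lie higher on both nNOS control arrays than on the WT control arrays. GAPDH (10.47 and 10.46 against 10.05 and 10.04) is also higher there, by less, and actin (9.80 and 9.68 against 9.60 and 9.63) lies close to the same level.

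In nNOS control, 221 probe sets were higher and 269 were lower than in WT control by 2 thresholds, a limma adjusted p up to 0.05 and a change of 1 or more in size on the log2 scale. These are 0.972% and 1.18% of the 22746, and 2.15% together. Of the probe sets that reached the fold threshold, 0 missed the adjusted p, so the fold threshold alone decided the counts. Below, "called" refers to both thresholds, and "higher", "lower", "rose" and "fell" to the adjusted p. The changes were mostly modest. The median size of a called change was 1.13 on the log2 scale and the upper quartile was 1.30. A size of 2 or more was reached by 2 probe sets that rose and 8 that fell. All 490 called probe sets had arrays that did not overlap between the groups, as had 62.5% of all probe sets. By the adjusted p alone, 2956 probe sets (13%) were higher and 4071 (17.9%) were lower, 30.9% in all, and these shares are the background for the gene groups below. Among the 13513 probe sets with 1 gene in the platform annotation, the shares by the adjusted p were 13.1% and 16.2%, and 1.01% were called higher and 1.08% called lower.

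The balance of directions depended on how the arrays were scaled to each other. In the deposited values 45.1% of the called probe sets were higher in nNOS control, against 62% after quantile normalization (303 higher, 186 lower), 69% with median centring of the arrays (338 higher, 152 lower) and 71.7% after cyclic loess (353 higher, 139 lower). Centring on the median moved the median fold change of all probe sets by about 0.1, to 0.112. The differences followed the signal. Probe sets of mean log2 signal between 3 and 4 had a median log2 fold change of 0.12, those between 6 and 7 one of -0.18, and those above 10 one of 0.04. Under all 4 scalings, 214 probe sets were called higher and 124 lower. The 2 nNOS control arrays also differed more from each other than the WT control arrays did, with 26 and 2 probe sets differing by 1 or more between the arrays of a group. Without nNOS control replicate 1, the counts were 370 higher and 487 lower.

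**Figure D2:**
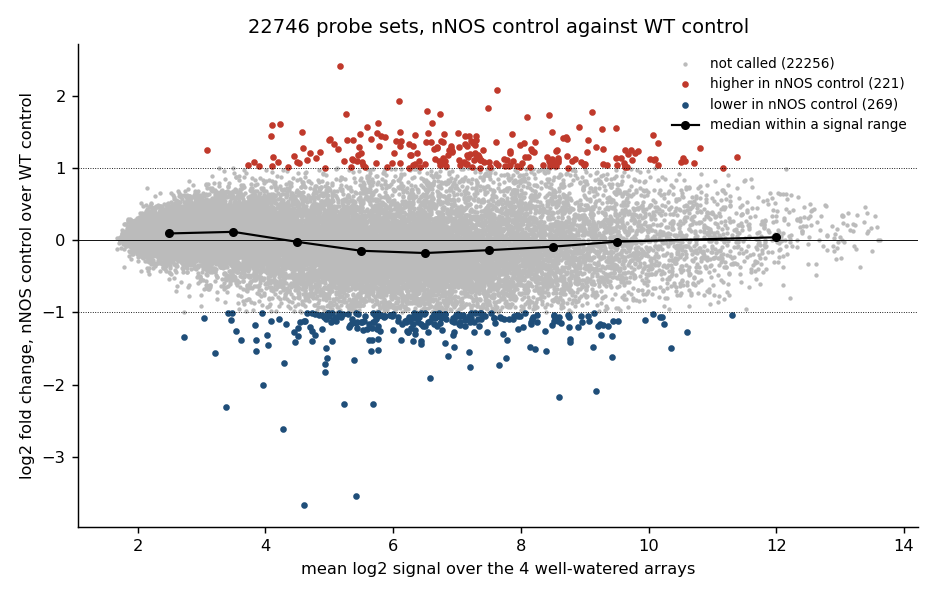
Log2 fold change of nNOS control over WT control (y axis) against the mean log2 signal of the 4 well-watered arrays (x axis), with 1 point per probe set and called probe sets in colour; the black line joins the medians within ranges of signal, and the dotted lines mark the fold threshold. The 221 probe sets called higher and 269 called lower lie across the middle and upper signal range, and the median line dips to -0.18 between signals of 6 and 7.

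The largest falls among probe sets with a named gene held genes of the cuticle, the pollen coat, defence and the plastid. Of the called probe sets, 82 that were lower and 31 that were higher had no gene name and were not ranked. AT3G55920, which encodes a cyclophilin-type prolyl isomerase, had the largest fall, with 2.54 and 3.01 in nNOS control and 6.42 and 6.46 in WT control (log2 fold change -3.66, SE 0.159, limma adjusted p = 1.34e-06, 2 arrays per group). AT1G66850, a gene of the lipid-transfer protein family, followed with 3.62 and 3.69 in nNOS control, against 7.06 and 7.32 in WT control (-3.54, SE 0.116, limma adjusted p = 2.06e-07). Both stood near 6 to 7 in WT control and close to the array's floor in nNOS control. *CYP96A15*, the midchain alkane hydroxylase of stem wax synthesis, had 2.98 and 2.97 in nNOS control and 5.62 and 5.55 in WT control. *GRP19*, a glycine-rich oleosin of the pollen coat, had 2.14 and 2.33 in nNOS control, against 4.64 and 4.45 in WT control. Means below 4 in nNOS control were seen for 4 of the 12 largest falls, where signal and background cannot be separated. *THI2.1*, an antimicrobial thionin that jasmonate induces, had 4.53 and 4.59 in nNOS control and 6.56 and 7.09 in WT control. AT1G54020, which encodes a GDSL-type lipase, had 4.38 and 3.84 in nNOS control, against 6.31 and 6.43 in WT control. Neither gene had overlapping arrays, as the choice of genes required, and the AT1G54020 arrays of nNOS control were uneven. Then came 3 plastid genes, *ndhK*, *ndhA* and *atpA*, given with the plastid genes below, and AT5G44520 (-1.91), a gene of the ribose-phosphate isomerase superfamily, *JAL23* (-1.82), a jacalin-type lectin, and *DIN11* (-1.72), an oxygenase gene that darkness induces.

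The largest rises, also among named genes only, held small secreted and cell wall proteins. AT4G27654 had the largest rise, with 6.06 and 6.70 in nNOS control and 4.01 and 3.92 in WT control (log2 fold change 2.41, SE 0.207, limma adjusted p = 6.01e-05). *PDF1.4*, of the plant defensin family, had 8.60 and 8.74 in nNOS control, against 6.69 and 6.48 in WT control (2.08, SE 0.13, limma adjusted p = 1.33e-05). *EARLI1*, a hybrid proline-rich protein of the cell wall with a lipid-transfer domain, had 7.04 and 7.09 in nNOS control and 5.11 and 5.14 in WT control. Its relatives at neighbouring loci moved with it. AT4G12490 had 10.02 and 9.97 in nNOS control, against 8.14 and 8.31 in WT control, AT4G12500 rose by 1.62, and *AZI1*, which primes systemic immunity, rose by 0.97. Members of this family are close in sequence, so their probe sets may not be independent. AT5G02220, an inhibitor of cyclin-dependent kinases known as SMR4, had 7.34 and 7.85 in nNOS control, against 5.88 and 5.83 in WT control, and its relative *SIM*, named after its value was seen, rose by 1.05. *AGP4*, an arabinogalactan protein of the cell surface, had 8.88 and 9.03 in nNOS control and 7.27 and 7.24 in WT control. Its relative *AGP5* rose by 1.29. *AZI1* and *AGP5* were named from the study's list of called genes. The remaining members of the 12 were the mitochondrial locus ATMG00690 (1.83), the cell wall protein gene AT2G41800 (1.75), AT2G21180 (1.73), the jasmonate-regulated oxygenase gene *JRG21* (1.62) and AT1G80450 (1.60). All 24 genes kept their call under all 4 scalings. They were picked for large changes, far from the fold threshold, so the choice itself makes this likely.

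**Figure D3:**
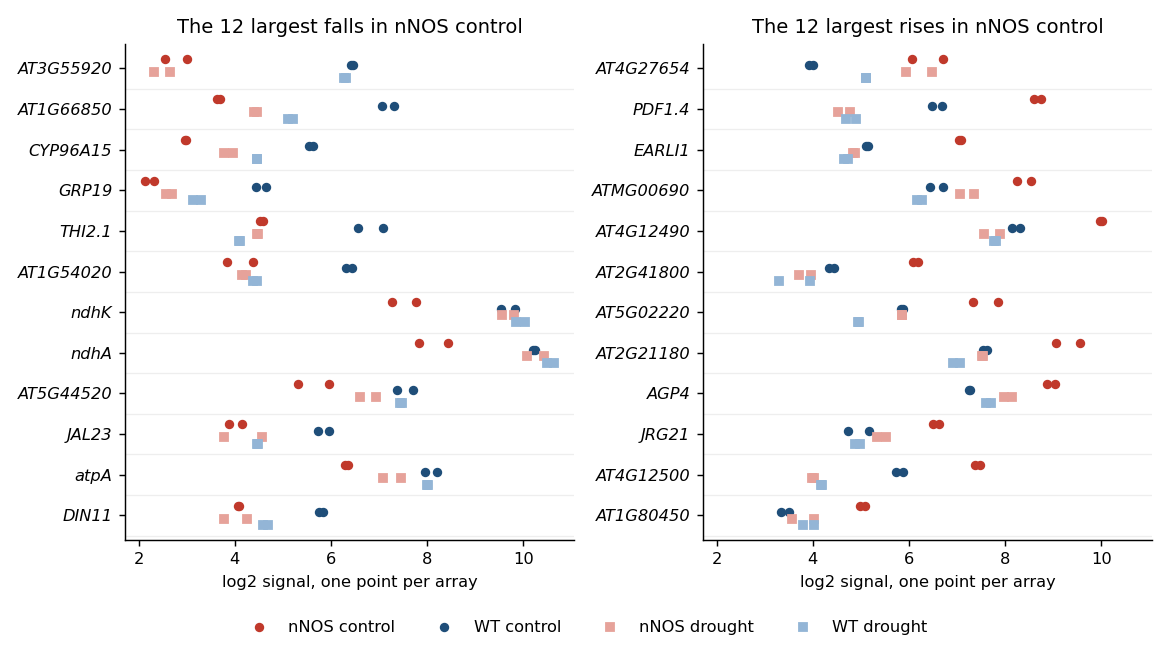
Log2 signal (x axis) on each of the 8 arrays for the 12 largest falls (left) and the 12 largest rises (right) among named genes, with circles for the well-watered arrays and squares for the droughted ones. In every gene both nNOS control arrays lie on the same side of both WT control arrays, as the choice of genes required. On the droughted arrays, among these 24 genes, only AT3G55920 shows a difference of like size.

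Genes encoded in the plastid fell more often than they rose, and they did so unequally along the genome. The plastid genome codes for core subunits of the photosynthetic complexes and for part of the plastid's own ribosome and RNA polymerase, and its genes are mostly transcribed together in clusters and then processed into shorter transcripts. Of 69 measured genes, 34 were lower and 14 higher in nNOS control, with a median log2 fold change of -0.33, against 0.01 for all probe sets. Of these, 16 were called lower and 6 called higher. The counts were 35 lower and 13 higher after quantile normalization, 30 and 14 with median centring, and 35 and 14 after cyclic loess. A sum over leaf cells cannot tell fewer cells or plastids of a kind from less RNA in each.

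The subunit genes of the plastid ATP synthase, which makes ATP from the proton gradient, were lower in 5 of 6 cases. *atpA*, its alpha subunit, had 6.36 and 6.30 in nNOS control, against 7.96 and 8.21 in WT control. *atpH*, the subunit of the membrane ring, had 8.70 and 8.70 in nNOS control and 9.92 and 9.82 in WT control. These genes share a cluster with *rps2*, a ribosomal protein gene, which had 4.97 and 5.04 in nNOS control, against 6.51 and 6.55 in WT control. All 5 genes of the cluster (*rps2*, *atpI*, *atpH*, *atpF* and *atpA*) were lower, by log2 fold changes of -0.72 to -1.76. The clusters were laid out after the values were seen, from the gene order and textbook knowledge.

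The NDH complex, which passes electrons from ferredoxin back into the plastoquinone pool, had 6 of 10 genes lower and 1 higher. *ndhK* had 7.77 and 7.28 in nNOS control and 9.83 and 9.54 in WT control (log2 fold change -2.17, SE 0.169, limma adjusted p = 3.68e-05). *ndhA* had 8.43 and 7.84 in nNOS control, against 10.20 and 10.24 in WT control. Both are membrane or connecting subunits of the complex. All 3 genes of the *ndhC-ndhK-ndhJ* cluster were lower (-0.76 to -2.17). In the other *ndh* cluster, *ndhA* was at -2.08 whereas *ndhD* was called higher, with 9.15 and 9.91 in nNOS control and 8.52 and 8.44 in WT control. *PnsL1*, a nuclear gene of the same complex named after its value was seen, was at -1.05.

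Neighbours also parted in the cluster *psbB-psbT-psbH-petB-petD*, which codes for photosystem II and cytochrome b6f subunits. *psbT* had 5.32 and 6.10 in nNOS control and 4.04 and 4.58 in WT control, a rise of 1.40. *psbH*, its neighbour, had 7.18 and 6.95 in nNOS control, against 8.34 and 8.40 in WT control, and *petB* was at -1.28. *psbN*, which lies between *psbT* and *psbH* on the opposite strand, had 10.27 and 10.42 in nNOS control and 9.09 and 9.09 in WT control. *psbB* (-0.06) and *petD* (-0.10) did not pass the test. In the cluster *accD-psaI-ycf4-cemA-petA*, which joins fatty acid synthesis, photosystem I assembly and cytochrome f, 4 genes were lower and *psaI*, a small photosystem I subunit, was higher. *cemA* had 7.02 and 6.88 in nNOS control, against 8.41 and 8.76 in WT control.

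Genes for small membrane proteins of photosynthesis, a grouping made after the values were seen, lay on both sides. *psaJ*, *psbT*, *petL*, *psbN*, *psbI*, *petN*, *psbJ*, *psbZ* and *psaI* were higher, whereas *psbH* (-1.30) and *psbE* (-0.33) were lower. *petL* had 8.47 and 8.83 in nNOS control and 7.29 and 7.38 in WT control. *psaJ* had the largest rise but unequal arrays, 9.48 and 11.04 in nNOS control, against 8.72 and 8.69 in WT control. *psbM* (0.17), *psbK* (-0.04), *psbL* (0.18), *psbF* (-0.12) and *petG* (0.28) did not pass the test. Grouped by gene name, photosystem II (*psb*) had 6 of 15 genes higher and 2 lower, photosystem I (*psa*) 2 of 5 higher and 1 lower, and cytochrome b6f (*pet*) 2 of 6 in each direction.

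Plastid ribosomal genes were mostly lower. Of the 8 measured for the small subunit 4 were lower and 1 higher, and of the 7 for the large subunit 5 were lower and 2 higher. The 7 measured genes of the cluster that ends in *rpoA*, the alpha subunit of the plastid's bacterial-type polymerase, were all lower (median -0.89). *rpl16* in that cluster had 8.30 and 7.85 in nNOS control and 9.50 and 9.46 in WT control, whereas *rpl20*, in another place, was higher by 1.26. *clpP*, the plastid protease subunit near *rpl20*, had 9.70 and 9.50 in nNOS control and 11.11 and 11.08 in WT control. *rbcL*, the large subunit of Rubisco, was lower by a log2 fold change of -0.44. Of the 34 genes that were lower, 17 had a negative sign on the droughted arrays (median 0.00) and 3 of these passed the test there. Of the 14 that were higher, 13 had a positive sign on the droughted arrays (median 0.38) and 4 of these passed. The difference between the genotype effects of watered and droughted arrays passed the adjusted p for 22 of the 34 and for 1 of the 14. The genes were sorted by their watered values, which that test also uses.

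**Figure D4:**
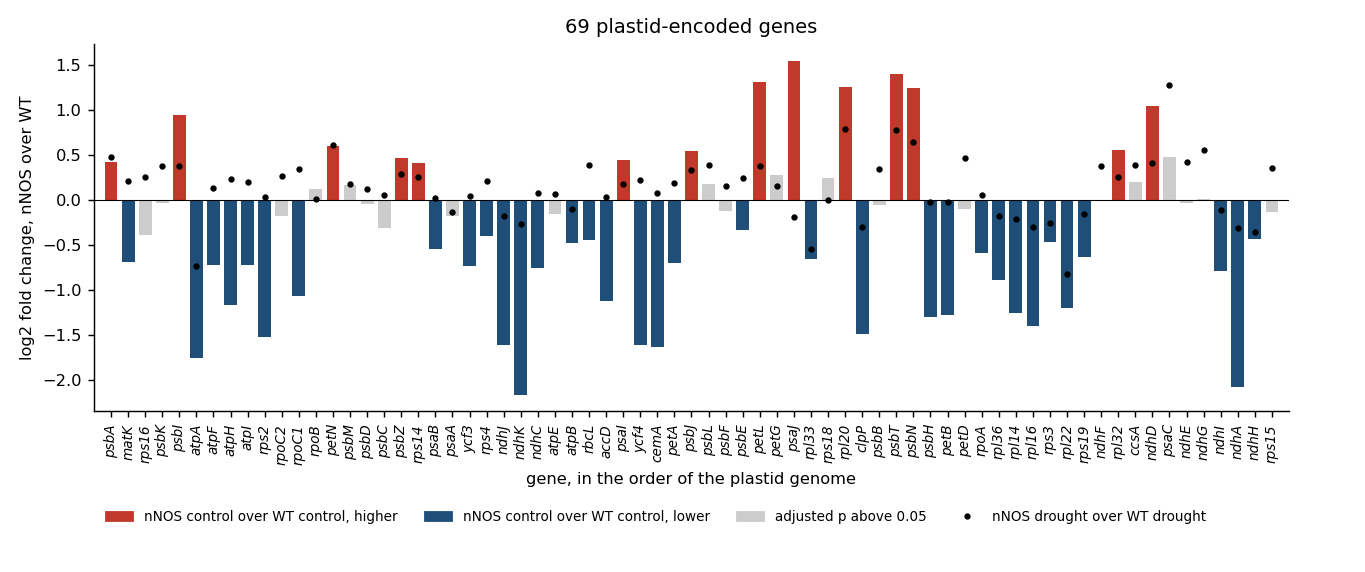
Log2 fold change of nNOS over WT for the 69 plastid-encoded genes in the order of the plastid genome, with bars for the well-watered plants (coloured where the adjusted p is at most 0.05) and dots for the droughted plants. Runs of lower genes such as *atpA* to *rps2* and *rpoA* to *rps19* alternate with higher genes such as *petL*, *psaJ* and the adjacent *psbT* and *psbN*. For most coloured bars the dot lies nearer to 0 or on the other side of it.

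Few nuclear genes of the chloroplast could be set beside these, and no test compared the 2 groups. Of 51 listed nuclear genes of the light reactions and the Calvin cycle 10 were measured, with a median log2 fold change of -0.02. Of these, *LHCB4.1* (0.35) and *LHCB4.2* (0.34), antenna proteins of photosystem II, were higher and *SBPASE* (-0.46), of the Calvin cycle, was lower in the deposited values. That direction depended on the scaling, since after quantile normalization and after cyclic loess 0 were higher and 3 were lower. *RPS1*, a nuclear gene for a plastid ribosomal protein that comes from the study's list of called genes, was at -1.03. *CRP1* (AT5G42310), known from maize for the processing of plastid *pet* transcripts, had 6.41 and 6.17 in nNOS control, against 6.74 and 7.04 in WT control (-0.61). AT5G15700, a phage-type RNA polymerase of both organelles, was higher by 0.56.

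Genes encoded in the mitochondrion moved the other way. These genes code for subunits of the respiratory chain and of cytochrome c maturation. Of 16 measured genes 9 were higher and 0 lower in nNOS control, with a median log2 fold change of 0.44. At an unadjusted p of 0.05 or less in the same limma fit, 11 were higher and 0 lower. The number higher was 9 after quantile normalization, 10 with median centring and 9 after cyclic loess, but only 4 were higher among the 5 genes left by a filter on signal. *nad4*, a subunit of complex I, had 7.76 and 8.06 in nNOS control and 6.38 and 6.55 in WT control. *nad6*, of the same complex, had 4.16 and 4.35 in nNOS control, against 3.31 and 3.11 in WT control. *cox2* and *cox1*, subunits of cytochrome c oxidase, rose by 0.75 and 0.44. On the droughted arrays all 16 genes had a nNOS over WT difference above 0, with a median of 0.31, and 6 were higher by the test. The 25S ribosomal RNA probe set given above rose in the same arrays.

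Chromosome 2 carries a large insertion of mitochondrial DNA, and probe sets of the loci AT2G07660 to AT2G07839 measure sequences that the mitochondrion also holds or that lie beside them. Of 34 such probe sets, 18 were higher and 0 lower (median 0.39, with 20 and 2 at an unadjusted p of 0.05 or less in limma). After quantile normalization or cyclic loess 15 were higher and 2 lower. Their median log2 signal was 3.43, and all probe sets between 3 and 4 had a median log2 fold change of 0.12. Some that were higher, such as AT2G07738 (mean 2.58 in nNOS control) and AT2G07670 (3.17), lay below 4, where signal and background cannot be separated. AT2G07751 had 5.92 and 6.31 in nNOS control, against 4.81 and 4.85 in WT control. AT2G07695 had 8.35 and 8.37 in nNOS control and 7.35 and 7.28 in WT control. Signals from the nuclear copies and from the mitochondrion cannot be told apart. The mitochondrial loci ATMG00660, ATMG00670, ATMG00690 and ATMG01000, named only because the study's list of called genes holds them, were called higher as well (1.22 to 1.83).

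Among regulators known from early stress responses some were higher and others did not pass the test. The members given next come largely from the study's own list of called genes, which holds a gene only because it was called in some comparison, so no count over them is given. *CBF1*, an activator of cold-response genes, had 6.78 and 6.94 in nNOS control and 5.42 and 5.29 in WT control. *CBF2* had 6.36 and 6.82 in nNOS control, against 5.13 and 5.18 in WT control. *DREB2A*, which acts in drought and heat, was at 0.31 and did not pass the test. *ZAT10* (STZ), a zinc finger repressor of many stresses, had 8.64 and 8.65 in nNOS control and 7.57 and 7.43 in WT control. *ERF4* and *ERF7*, repressors of the ethylene response factor family, rose by 1.39 and 1.25 and AT5G51190 of that family by 0.54, whereas *ERF2*, an activator, was at -0.18 and did not pass the test. The ubiquitin ligase genes *CNI1* (1.49), *RHA3B* (1.24) and *ATL6* (1.13) were higher, whereas *PUB22* (0.13), *PUB23* (0.03) and *PUB24* (0.07), ligases that dampen immune signalling, did not pass the test.

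Calcium, WRKY and salicylic acid genes were mixed. *PBP1*, *NIMIN1*, *PR2*, *PR5*, *PBS3* and *FMO1* come from the study's list of called genes, so they stand for no group. *PBP1*, a calcium-binding partner of the kinase PINOID, had 7.85 and 7.97 in nNOS control and 6.93 and 6.68 in WT control. Of 3 measured calcium genes *CML23* was higher (0.70), and of 3 measured WRKY factors *WRKY22* was higher (0.51). *NIMIN1*, which binds the salicylic acid regulator NPR1, had 7.21 and 7.66 in nNOS control, against 5.99 and 6.13 in WT control. *GRX480*, a glutaredoxin that interacts with TGA factors, rose by 1.15. *PR2* (BGL2) at -0.55 and *PR5* at -0.39, defence proteins that salicylic acid induces, were both lower. *PBS3* (-0.29), *FMO1* (-0.27) and *SAG101* (0.41) did not pass the test.

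Few jasmonate genes had a probe set in the platform annotation. Of 3 measured genes of the list, *THI2.1* and *PDF1.2* were lower and *JMT* (-0.18), a jasmonate methyltransferase, did not pass the test. *PDF1.2*, a defensin that jasmonate and ethylene induce, had 7.92 and 8.25 in nNOS control and 9.50 and 9.41 in WT control. Its near-identical relative *PDF1.2b* was at -1.06, and these may share signal. The JAZ genes given next come from the study's list of called genes. *JAZ6*, a repressor of the pathway, was lower by a log2 fold change of -0.81, whereas its relatives *JAZ7* (0.04) and *JAZ10* (-0.15) did not pass the test. In the other direction, *PDF1.4*, a defensin by name, and the jasmonate-regulated *JRG21* were among the largest rises.

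Abscisic acid closes stomata and induces dehydration proteins. Of 14 listed receptor genes 0 were measured in the platform annotation. *PYL5* and *PYL6* below, and *RCI2B*, come from the study's list of called genes, so they stand for no family. The study also reports the receptor gene *PYL4* as raised in watered nNOS plants. No probe set was matched to *PYL4* here, so its change was not tested. *PYL5*, one of the receptors, had 10.26 and 10.51 in nNOS control and 9.17 and 9.19 in WT control, and *PYL6* rose by 0.64. Of 5 measured dehydration-induced genes 3 were lower and 1 higher (2 lower with median centring). *LTI30*, a dehydrin, had 7.49 and 7.41 in nNOS control, against 8.24 and 8.14 in WT control, *COR15B* was at -0.64 and *COR47* at -0.30. *LEA4-5*, a late embryogenesis abundant protein, rose by 0.56. *RCI2B*, a small membrane protein of cold and salt stress, rose by 1.28.

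Genes of auxin and of cell expansion went in both directions. Of 7 measured auxin-response genes *WES1* (0.75), which conjugates auxin to amino acids, and *IAA29* (0.36) were higher and *IAA18* (-0.64) was lower. The SAUR family encodes small proteins that auxin induces in growing tissue. Of its 80 genes in RefSeq, only 3 had a probe set in the platform annotation, of which 1 was higher and 0 lower by limma, as at an unadjusted p of 0.05 or less. Of 17 more that the study's list of called genes names, 6 were called higher, and a count over that list is no evidence about the family. *SAUR23* had 10.14 and 10.41 in nNOS control and 9.09 and 9.05 in WT control, and *SAUR63* (1.06), *SAUR68* (1.07), AT1G76190 (1.22) and AT1G16510 (1.47) rose as well. AT4G22620 had 5.23 and 5.40 in nNOS control, against 3.60 and 4.04 in WT control. These 6, all from the study's list, were named after their values were seen. Of 4 measured expansin genes, which loosen walls, *EXPA8* rose by 0.83 and *EXLA1* was lower by a log2 fold change of -0.93. *XTH3*, which remodels xyloglucan and comes from the study's list, had 2.72 and 3.90 in nNOS control, against 4.83 and 4.70 in WT control. Its pair of nNOS arrays was uneven, with a mean of 3.31, close to the floor.

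Of 6 measured genes of starch and sucrose metabolism 4 were lower and 0 higher by limma, as at an unadjusted p of 0.05 or less, with a median of -0.49 (3 lower under each of the other 3 scalings). *PWD*, which phosphorylates starch before its breakdown, had 7.66 and 7.26 in nNOS control and 8.09 and 8.11 in WT control. AT2G35840, a sucrose phosphatase, had 6.99 and 6.76 in nNOS control, against 7.87 and 7.66 in WT control. *DPE1* (-0.55) and *SBE2.2* (-0.42) were also lower. Both phosphatases of starch breakdown that the study's list names, *SEX4* (-1.07) and *LSF2* (-1.27), were lower too. *SPS4F* (-0.39), a sucrose phosphate synthase, and *SWEET11* (0.19), a sucrose exporter, did not pass the test.

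The annotation held few pigment genes. *CYP97A3*, *GSTF12* and *LBD38* come from the study's list of called genes, so they stand for no pathway. Of carotenoid synthesis *LYC*, lycopene cyclase, was at -0.67 and *CYP97A3*, a carotene hydroxylase, had 6.41 and 6.01 in nNOS control and 7.70 and 7.69 in WT control. *CHLM*, of chlorophyll synthesis, was at -0.44 whereas *PORB* (0.13) did not pass the test. *CHLI2*, a magnesium chelatase subunit named after its value was seen, had 7.60 and 7.64 in nNOS control, against 9.14 and 9.17 in WT control. Of 3 measured flavonoid genes *DFR* and AT4G14090 (-0.40) were lower and *UF3GT* (-0.06) did not pass the test. *DFR*, which commits flavonoids to anthocyanin, had 3.76 and 3.93 in nNOS control, close to the floor, and 5.21 and 5.14 in WT control. *GSTF12*, needed for anthocyanin transport, was at -1.38, and *LBD38*, a nitrate-responsive repressor of anthocyanin genes, rose by 1.24.

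Genes of metals and redox went in both directions. The superoxide dismutase genes and *AOX1A* given here come from the study's list of called genes, so they stand for no family. *FSD1*, the iron superoxide dismutase, had 10.29 and 10.32 in nNOS control and 9.25 and 9.13 in WT control. The copper forms were lower, *CSD2* at -0.55 and *CSD1* at -0.39, as was *CCS* (-0.52), their copper chaperone and the single gene to pass among 5 measured antioxidant genes. Of 3 measured iron-deficiency genes *BHLH101* (0.44) and AT1G47400 (0.45), which encodes a peptide of iron signalling, were higher and *PYE* (0.11) did not pass. The study's list adds *OPT3* (0.75), a transporter of the phloem that acts in iron signalling, which was higher, and *ORG1* (-0.62), which had 8.34 and 8.16 in nNOS control and 8.89 and 8.86 in WT control and was lower. *FRO3* (0.25), a ferric reductase, and *BTS* (-0.18), a ubiquitin ligase that restrains the iron response, did not pass the test. *AOX1A*, the alternative oxidase gene that mitochondrial stress induces, was lower by a log2 fold change of -0.72.

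Genes known from phosphate starvation and senescence were both higher and lower. Of 19 listed phosphate-starvation genes 0 were measured in the platform annotation, and the 4 given here come from the study's list of called genes. *SPX3*, a phosphate sensor, had 3.03 and 2.93 in nNOS control and 4.08 and 3.90 in WT control. *PS2* (-1.53) and *PEPC1* (-1.38), both phosphatases of phosphate starvation, were also called lower, whereas *RNS1*, a ribonuclease of the same response, rose by 1.38. In nNOS control the means of *SPX3* (2.98), *PS2* (3.08) and *PEPC1* (2.93) lay below 4, where signal and background cannot be separated. *SAG12*, a cysteine protease of senescing leaves, had 3.59 and 3.93 in nNOS control, against 5.01 and 5.32 in WT control. Its mean in nNOS control (3.76) and that of *WSD1* below (3.61) also lay below 4. *SAG12*, *SEN1* and *CER1* come from the study's list of called genes as well. *SAG29* (0.22), the single measured member of the senescence list, and *SEN1* (0.12) did not pass the test. Of cuticular wax, *WSD1*, a wax ester synthase, was at -0.92, beside *CYP96A15* above, and *CER1* (0.44), of alkane synthesis, did not pass.

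The study also picked genes that nitroprusside, a nitric oxide donor, changes as well. That list was chosen on these samples, so its direction here is not independent evidence. Of its 17 measured members 12 were higher and 5 lower. AT1G24140, a matrix metalloproteinase gene, had 7.03 and 7.12 in nNOS control and 5.70 and 5.54 in WT control. AT5G47070, a protein kinase gene, had 6.36 and 6.06 in nNOS control, against 7.30 and 7.28 in WT control. Under each of the 3 other scalings 12 members were called higher and 1, AT1G13650, was called lower, whereas 4 were called lower in the deposited values.

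Leaf identity was checked on markers. *LHCB4.1* stood at 13.40 and 13.47 in nNOS control and 13.06 and 13.12 in WT control, near the top of the scale. The meristem marker *CLV3* was at 2.66 and 3.06 in nNOS control and 2.86 and 2.74 in WT control, near the floor. *FAMA* (FMA), which marks the guard cell lineage, had 4.07 and 3.86 in nNOS control, against 4.67 and 4.53 in WT control (-0.64). Of 6 measured anther genes *ATA27* (-1.33) and AT1G66850 were lower and *SHT* (0.52) was higher. *AGL8*, a MADS factor of the floral transition, had 4.26 and 4.98 in nNOS control and 5.71 and 5.51 in WT control. The root gene *EXPA18* was higher by 0.57 from a low level, and *EXPA7* (0.22) did not pass. The part of a different share of flowering tissue in the changes of *GRP19*, *CYP96A15* and AT1G66850 was not tested.

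Gene families that share a symbol were tabulated after the values were seen, for all 38 symbol prefixes with at least 6 probe sets. In 5 of them at least 50% of the members moved one way. Of 11 PRA1 genes, which act in vesicle traffic between endoplasmic reticulum and Golgi, 9 were higher and 0 lower by limma, under each of the 4 scalings, with the same counts at an unadjusted p of 0.05 or less. *PRA1.B6* (1.14) and *PRA1.B4* (1.14) rose most. Of 10 RALFL genes, which encode signalling peptides of the cell wall, 7 were higher (4 after quantile normalization, 5 after cyclic loess), led by *RALFL24* (1.42). Among these, *RALFL18* (mean 2.90 in nNOS control), *RALFL28* (3.09) and *RALFL26* (3.74) lay below 4, where signal and background cannot be separated. Of 8 ATG genes of autophagy 4 were higher and 1 lower, led by *ATG8E* (0.82). Of 10 VPS genes, mainly of the ESCRT machinery that sorts membrane proteins to the vacuole, 6 were lower under each scaling, led by *VPS60.1* (-0.86). Of 6 NRPB genes, subunits of RNA polymerase II, 4 were lower (3 after quantile normalization and after cyclic loess).

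The droughted arrays hold the same contrast of genotypes in other samples. Their values do not enter the watered fold changes, but the 8 arrays share 1 estimate of the spread in the limma model. A fit to the 4 watered arrays alone has the same fold changes, which decided the counts, and also called 221 higher and 269 lower. Of the 221 probe sets called higher, 201 (91%) had a positive nNOS drought over WT drought difference, and of the 269 called lower, 254 (94.4%) had a negative one, whereas 73.1% of all probe sets had the same sign in both contrasts. The changes were smaller there, with medians of 0.35 and -0.39. By the test, 71 of the 221 were also higher in nNOS drought (3.68% of all probe sets were) and 115 of the 269 were also lower (7% of all). The difference between the genotype effects passed an adjusted p of 0.05 for 148 of the 221 and 140 of the 269, each time with the smaller effect in drought, and for 3.64% of all probe sets. Since the probe sets were chosen for large changes in watered plants, smaller ones elsewhere are partly set by that choice. The same holds for the counts that passed the test of the difference, which uses the same watered values.

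Few probe sets were called in both contrasts. AT3G55920 had 2.31 and 2.65 in nNOS drought and 6.32 and 6.27 in WT drought, a log2 fold change of -3.81 that is close to that in watered plants. AT4G27654 (1.10 in drought) and AT1G70200 (-1.11), which encodes an RNA-binding protein, kept their direction past both thresholds, and so did 1 unnamed probe set that fell. AT5G52760, a gene for a copper-transport-like protein, and *UPB1*, a transcription factor of peroxidase genes, were higher in nNOS control (1.01 and 1.30) and lower in nNOS drought (-0.68 and -0.52). These 2 were the only called probe sets that passed the test in the opposite direction.

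**Figure D5:**
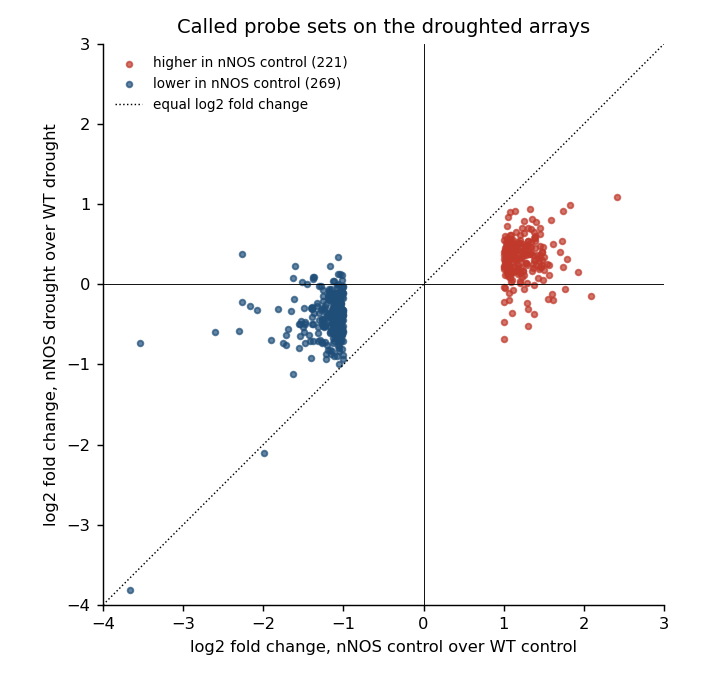
Log2 fold change of nNOS drought over WT drought (y axis) against that of nNOS control over WT control (x axis), with 1 point for each of the 221 probe sets called higher and 269 called lower in watered plants; the dotted line marks equal changes. Nearly all points lie between the x axis and the dotted line (201 and 254 with the same sign), and AT3G55920, at the lower left, lies on it.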

How the data were processed

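The authors extracted the ATH1 signals with the Affymetrix Command Console and used affylmGUI in R. The deposited values are their normalized log2 signals, and the normalization is not given in the sources used here. A limma model (limma 3.58.1, R 4.3.3) with 4 group means was fitted to the 8 arrays and moderated with eBayes (residual df 4, prior df 6.71). P-values were adjusted by Benjamini-Hochberg over 22810 probe sets, and the 64 controls were then left out. Columns of other samples numbered 0.

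The platform annotation gives 1 gene for 13513 probe sets and several for 503. A further 245 were named from the study's list of called genes and were not counted in gene lists, and 8485 stayed unnamed. Called probe sets are among the unnamed ones, so a gene that is not given here may still have changed. Where probe sets shared a gene, the brightest stood for it in the lists. Named genes are the 12 largest rises and 12 largest falls among called, named, non-overlapping probe sets, members of the lists, and genes marked as chosen after their values were seen. The members and lists were chosen with earlier results of these data known. In simulated data for this comparison over 22746 probe sets, 94%, 92%, 100% and 100% of changes of 1.25, 1.5, 2 and 3 on the log2 scale were called, with 0 false calls. The simulated noise was independent between probe sets and held no array-wide shift like those described above. False calls from such shifts were therefore not tested. Alternatives were 3 normalizations, a filter at log2 signal 6, thresholds, a fit to the 4 watered arrays, trended and weighted fits, a replicate block, probe sets of several genes left out, and each watered array left out. The 2 arrays per group limit the precision. Plastid gene order came from RefSeq (TAIR10.1), and no sequence or coordinate was used.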

Additional observations from a re-analysis of the deposited data

Results flagged for a closer look

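The genotype effect differed between watered and droughted plants, by the test of the difference itself, for 148 of the probe sets called higher and 140 of those called lower, against 3.64% of all probe sets. That test uses the same watered values by which these probe sets were chosen. The choice itself favours a smaller effect in drought, so the counts are partly set by it. Of the 12 largest falls, also chosen on watered values, 11 had a difference between the effects past the adjusted p. It is given here as the drought effect minus the watered effect on the log2 scale. It was 2.80 for AT1G66850, 2.65 for *THI2.1*, 2.04 for AT1G54020, 2.01 for *CYP96A15* and 1.73 for *GRP19*. For the plastid genes it was 1.90 for *ndhK*, 1.77 for *ndhA* and 1.02 for *atpA*. *JAL23* had 1.52, AT5G44520 had 1.22 and *DIN11* had 1.09. AT3G55920, with -0.15, did not pass this test.

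Of the 12 largest rises, 10 had a difference between the effects. It was -2.23 for *PDF1.4*, -1.83 for AT4G12490, -1.81 for AT4G12500, -1.77 for *EARLI1* and -1.72 for AT1G80450. AT2G41800 had -1.53, AT4G27654 had -1.32 and *AGP4* had -1.30. AT2G21180 had -1.19 and *JRG21* had -1.12. ATMG00690 (-0.84) and AT5G02220 (-0.83) did not pass. The poly-A controls, whose nNOS over WT difference was 2.31 on watered and 0.50 on droughted arrays, moved with these differences, and their part was not tested.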

How the results depend on the processing

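The count of 490 called probe sets (221 higher, 269 lower) was 7027 (2956 higher, 4071 lower) without a fold threshold. Median centring gave 338 higher and 152 lower, and cyclic loess gave 353 higher and 139 lower; the cause was not tested. Leaving out 1 array gave 391 to 857 calls, with 186 to 370 higher and 205 to 487 lower, and the highest counts came without nNOS control replicate 1. The 4-array fit, array weights and the replicate block left the counts at 221 and 269. These fits keep the fold changes, and the fold threshold alone decided the counts, so their equality is no evidence that the calls are robust. The correlation of the replicate differences of nNOS control and WT control was -0.06, and other pairs of groups ranged from -0.12 to 0.12. These values cannot tell if arrays of the same replicate number were grown or processed together. Without 1 array, 91.3% to 94.4% of the called probe sets had the same sign in drought, 29 to 34 plastid genes were lower, 10 to 17 were higher, 7 to 9 mitochondrial genes were higher, and the poly-A mean was 2.10 to 2.53. The filter on signal left 5 of 16 mitochondrial genes, of which 4 were higher. Of 171 named genes tried, 85 were called, 0 reversed a called direction, 14 lost the call without 1 array, and 8 lost it under another normalization. Signals near the floor bound the falls of the dimmest genes.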
